A study of Saccharomyces cerevisiae with 4 samples.

Results

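The 33 genes described here encode aminoacyl-tRNA synthetases of budding yeast (Saccharomyces cerevisiae) and the synthetase cofactor Arc1. The list is not the full set of such genes. Its members were taken from a fixed list of gene symbols, 20 for the cytosol and 13 for the mitochondrion, out of 5583 named genes on the arrays. All 33 symbols were found on both array platforms and were the current symbols of the same gene identifiers in RefSeq. Each of the 4 two-colour arrays set RNA that came down with zzMex67 against RNA that came down with zz, the tag without Mex67. The labels used here name no strain, culture or lysis conditions, and do not say whether the 4 arrays came from separate cultures. Any p-value below therefore rests on the spread between at most these 4 arrays, and that spread may be technical.

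An aminoacyl-tRNA synthetase joins an amino acid to the tRNAs that carry it, the step that fixes the genetic code before the ribosome is reached. The enzymes fall into classes I and II, which differ in the fold of the catalytic domain. Yeast has a cytosolic enzyme for the standard amino acids and, for most of them, a separate enzyme, also encoded in the nucleus, that is imported into the mitochondrion. A few genes serve both compartments by making longer and shorter proteins from alternative starts, among them ALA1, GRS1, HTS1 and VAS1. Messenger RNAs of cytosolic and mitochondrial enzymes are all transcribed in the nucleus and leave it through the pore, where Mex67 acts as the export receptor. The arrays asked which messages were found with that receptor beyond the level found with the tag.

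Values are log2 ratios minus the median of the named genes on the same array, so 0 is the typical gene of that array and 1 is 2-fold above it. A higher value likely means relatively more RNA in the zzMex67 precipitate, because zzMex67 comes first in the titles and sits in channel 1 of replicates 1, 3 and 4. The files do not settle this direction. On replicate 2 the labels put zzMex67 in channel 2, and its sign was turned, which makes each of its values open to the opposite sign. Replicate 1 was made on one platform, and replicates 2, 3 and 4 on another. Levels set across the platforms compare tables that were processed apart.

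Of the 33 genes, 32 had a value on at least 1 array, and the histidyl-tRNA synthetase gene HTS1 had none. No gene of the list had a value on all 4 arrays, 10 had 3 values, 14 had 2 and 8 had 1. On replicate 1, 28 of 33 genes were measured, against 79.0% of all named genes of the platform. On replicate 2 the count was 9, against 9.46% of all genes. On replicate 3 it was 10, against 41.2%, and on replicate 4 it was 19, against 43.7%. On replicate 4, 10 of 13 mitochondrial genes but 9 of 20 cytosolic genes carried a value. Why spots lack a value is not stated in the labels.

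No synthetase gene passed limma's test on the second platform, and neither did any other gene. The fit held 1212 genes with a value on at least 2 of replicates 2, 3 and 4, and 0 of them passed in either direction after Benjamini-Hochberg adjustment (percent called 0), with 57 at an unadjusted p under 0.05. The 11 synthetase genes in the fit, each on 2 arrays, had an adjusted p of 0.998 from limma, and 0 of the 11 had an unadjusted p under 0.05. Their fitted means had a standard error of 1.27, more than a 2-fold change. That error was the same for every gene with 2 values. The p-values of this fit thus rest on a spread common to the 1212 genes, not on the spread of each gene. The seryl-tRNA synthetase gene SES1 had the largest fitted difference among the 11, -2.32 from replicates 2 and 3 (limma, unadjusted p = 0.0679). With replicate 2 as deposited, SES1 had 0.78 (limma, unadjusted p = 0.526) and MSY1, a mitochondrial gene, the largest, -1.55 (limma, unadjusted p = 0.2096), with an adjusted p of 0.995 for both. With all 4 arrays joined by gene, limma called 0 of 10 synthetase genes and 0 of all 984 genes, with 0 and 56 at an unadjusted p under 0.05.

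The synthetase messages lay around the typical gene of each array, without a direction shared by the arrays. On replicate 1, 6 of the 28 measured genes were 2-fold or more higher than the array median and 2 were 2-fold or more lower, against 26.0% and 21.1% of all genes. On replicate 2 the counts were 1 and 4 of 9 genes, against 27.7% and 29.2%. On replicate 3 they were 0 and 4 of 10, against 28.9% and 21.9%, and on replicate 4 they were 5 and 5 of 19, against 22.5% and 17.4%. The medians over the measured genes were 0.27, 0.32, -0.29 and 0.18 on replicates 1 to 4, where the median of all genes is 0.

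**Figure D1:**
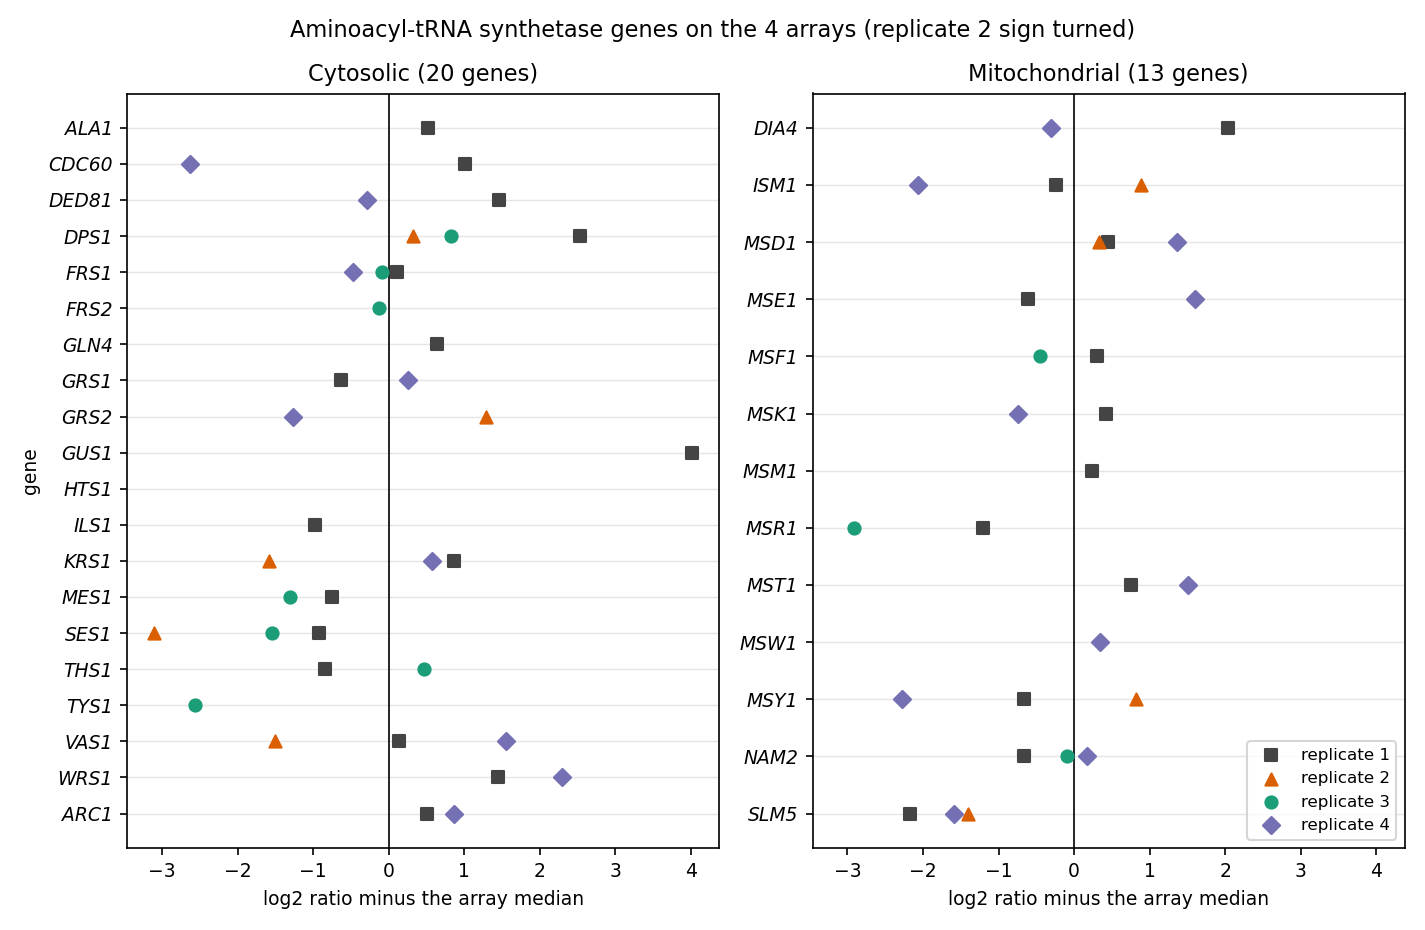
Log2 ratio minus the array median (x axis) for each cytosolic gene (left) and each mitochondrial gene (right), with a symbol for each array on which the gene has a value. GUS1 at 4.02 on replicate 1 lies farthest to the right and SES1 at -3.10 on replicate 2 farthest to the left. With replicate 2 as deposited, SES1 would stand at 3.10 there and MSR1, at -2.91 on replicate 3, farthest to the left. Most genes with several values have symbols on both sides of 0.

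Among the cytosolic genes with 3 values, DPS1 was above the array median on each array and SES1 below it on each. DPS1 (YLL018C), the aspartyl-tRNA synthetase gene, had 2.53, 0.32 and 0.83 on replicates 1, 2 and 3, a mean of 1.23 ± 1.16 (SD, n = 3). Each of these values came from 1 measured spot. The value on replicate 1 stood 5.78-fold above the median and the other values under 2-fold, and the mean without replicate 1 was 0.57. SES1 (YDR023W) had -0.92, -3.10 and -1.54 on the same arrays, a mean of -1.85 ± 1.13 (SD, n = 3), with the value on replicate 2 lying 8.59-fold below the median. Its duplicate spots were close together, at -3.15 and -3.05 on replicate 2 and at -1.60 and -1.48 on replicate 3. With replicate 2 as deposited, the mean of SES1 was 0.21. With each run of 400 neighbouring spots centred on its own median, SES1 had 0.87 on replicate 1, on the other side of the median, and a mean of -0.48.

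The other cytosolic genes with 3 values had mixed signs. KRS1 (YDR037W), the lysyl-tRNA synthetase gene, had 0.86, -1.58 and 0.57 on replicates 1, 2 and 4, a mean of -0.05 ± 1.33 (SD, n = 3). VAS1 (YGR094W), whose product charges valine tRNAs in both compartments, had 0.14, -1.50 and 1.55 on the same arrays, a mean of 0.06 ± 1.53 (SD, n = 3). Both genes were thus below the median only on replicate 2, the array with the turned sign. FRS1 (YLR060W), which encodes the beta subunit of phenylalanyl-tRNA synthetase, had 0.11, -0.09 and -0.47 on replicates 1, 3 and 4, a mean of -0.15 ± 0.29 (SD, n = 3). All of its values lay within 1.38-fold of the array median. With runs of neighbouring spots centred, FRS1 had -0.52, -0.11 and -0.67, below the median on each of these arrays. FRS2, the gene of the alpha subunit, was measured on replicate 3 alone, with -0.13 beside -0.09 for FRS1.

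GUS1 (YGL245W), the glutamyl-tRNA synthetase gene, had the highest value of the whole list, 4.02 on replicate 1, or 16.2-fold above the array median. Its spots there had 4.75 and 3.29, and no other array measured it. Glutamyl-tRNA synthetase and methionyl-tRNA synthetase bind Arc1, a cofactor that holds tRNA for both enzymes. The methionyl-tRNA synthetase gene MES1 had -0.75 and -1.30 on replicates 1 and 3, with duplicate spots on replicate 3 both at -1.30. ARC1 had 0.50 and 0.86 on replicates 1 and 4. Its spots on replicate 1, at -0.82 and 1.83, disagreed in sign. On replicate 1, where all 3 genes of this complex were measured, GUS1 and ARC1 were thus above the median and MES1 below it.

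WRS1 (YOL097C), the tryptophanyl-tRNA synthetase gene, had 1.45 and 2.29 on replicates 1 and 4, both 2-fold or more above the median, and the spots on replicate 4 had 2.01 and 2.56. The leucyl-tRNA synthetase gene CDC60 (YPL160W) had 1.01 on replicate 1 and -2.64 on replicate 4, with spots of -2.08 and -3.19 there. The 2 arrays thus put CDC60 at least 2-fold from the median on opposite sides. DED81, for asparagine, had 1.46 and -0.29 on the same arrays, and THS1, for threonine, had -0.85 and 0.46 on replicates 1 and 3. The tyrosyl-tRNA synthetase gene TYS1 was measured on replicate 3 alone, at -2.56, with spots of -2.97 and -2.15. ILS1 (isoleucine), GLN4 (glutamine) and ALA1 (alanine) were measured on replicate 1 alone, at -0.98, 0.64 and 0.52. ILS1 moved to 0.80 when runs of neighbouring spots were centred.

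GRS1 and GRS2 are paralogs for glycyl-tRNA synthetase, GRS1 being the gene that serves normal growth. GRS1 had -0.63 on replicate 1 and 0.25 on replicate 4. GRS2 had 1.28 on replicate 2 and -1.26 on replicate 4, from 1 of its 2 spots on each array. On the only array that measured both, replicate 4, GRS1 was near the median and GRS2 2.40-fold below it. The sources used here do not say whether the probes tell the paralogs apart.

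Among the mitochondrial genes with 3 values, MSD1 lay above the array median on each array and SLM5 below it on each. MSD1 (YPL104W), the mitochondrial aspartyl-tRNA synthetase gene, had 0.45, 0.33 and 1.37 on replicates 1, 2 and 4, a mean of 0.72 ± 0.57 (SD, n = 3). Only the value on replicate 4 was past 2-fold, and the spots on replicate 2, at 0.87 and -0.21, disagreed in sign. With runs of neighbouring spots centred, MSD1 had -0.71 on replicate 2, below the median, and a mean of 0.21. SLM5 (YCR024C), the mitochondrial asparaginyl-tRNA synthetase gene, had -2.17, -1.40 and -1.59 on the same arrays, a mean of -1.72 ± 0.40 (SD, n = 3), and was at least 2.63-fold below the median on each. Its spots on replicate 4 had -1.55 and -1.64, but those on replicate 2 had -2.81 and 0.01. The mean of SLM5 was -0.79 with replicate 2 as deposited. With runs centred, SLM5 had -0.94, -2.45 and -0.79, still below the median on each array but within 2-fold of it on replicates 1 and 4. In limma's fit on all 4 arrays SLM5 had an unadjusted p of 0.0611 and SES1 one of 0.0547, with an adjusted p of 0.754 for both.

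ISM1 (YPL040C), for isoleucine, and MSY1 (YPL097W), for tyrosine, were alike in pattern. ISM1 had -0.24, 0.89 and -2.06 on replicates 1, 2 and 4, a mean of -0.47 ± 1.49 (SD, n = 3). MSY1 had -0.66, 0.82 and -2.28 on these arrays, a mean of -0.71 ± 1.55 (SD, n = 3). Both were thus above the median only on replicate 2, where their duplicate spots disagreed in sign (2.45 and -0.67 for ISM1, -0.17 and 1.82 for MSY1). With runs of neighbouring spots centred, ISM1 had -0.15 on replicate 2, below the median, while MSY1 had 0.40, above it. On replicate 4 each rested on 1 spot. NAM2 (YLR382C), whose product charges leucine tRNAs and also takes part in splicing of mitochondrial introns, had -0.66, -0.09 and 0.18 on replicates 1, 3 and 4, a mean of -0.19 ± 0.43 (SD, n = 3). It stayed within 2-fold of the median on each array.

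The mitochondrial genes with fewer values covered a wide range. MSR1, for arginine, had -1.21 on replicate 1 and -2.91 on replicate 3, from 1 spot on each array, the lowest mitochondrial value on any array. MST1, for threonine, had 0.76 and 1.51 on replicates 1 and 4, above the median on both, but -0.12 on replicate 4 with runs centred. DIA4, a probable mitochondrial seryl-tRNA synthetase gene, had 2.04 on replicate 1, 4.10-fold above the median, and -0.30 on replicate 4. MSE1, for glutamate, had -0.61 and 1.60 on these arrays. MSK1, for lysine, had 0.42 and -0.74. The values of DIA4, MSE1 and MSK1 thus lay on opposite sides of the median on the 2 arrays. MSF1 (phenylalanine) had 0.30 and -0.45 on replicates 1 and 3, MSM1 (methionine) 0.24 on replicate 1, and MSW1 (tryptophan) 0.34 on replicate 4.

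Of the 10 genes with 3 values, 4 kept to 1 side of the array median, DPS1 and MSD1 above it and SES1 and SLM5 below it, against 24.4% of the 984 genes with at least 3 values. By direction, 2 of 10 were above on every array, against 14.5% of all genes, and 2 below, against 9.86%. With replicate 2 as deposited the counts were again 2 and 2 (15.8% and 10.2% of all genes), but the genes were KRS1 and VAS1 above and ISM1 and MSY1 below. None of the 4 genes was shared between the 2 readings of replicate 2 (0 in both). With runs of neighbouring spots centred, 12 of the 66 values of synthetase genes lay on the other side of the median. DPS1 and SLM5 then still kept to 1 side, and SES1 and MSD1 did not. FRS1 and ISM1 then lay below the median on each array that measured them. No share over all genes is given for that setting. Replicates 1, 3 and 4, which share a channel order, do not depend on the sign of replicate 2, and only FRS1 and NAM2 were measured on all 3 of them. Neither lay above the median on all 3, against 19.2% of 725 genes, and neither lay below on all 3, against 9.24%. The last count depends on the processing, because FRS1 lay below the median on all 3 with runs of neighbouring spots centred.

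Cytosolic and mitochondrial genes did not separate on any array. On replicate 1 the 16 measured cytosolic genes had a median of 0.51 (SD over genes 1.36) and the 12 mitochondrial genes a median of -0.0011 (SD 1.07). On replicate 2 the medians were -1.50 for 5 cytosolic genes (SD 1.73) and 0.58 for 4 mitochondrial genes (SD 1.07). On replicate 3 they were -0.13 for 7 cytosolic genes (SD 1.22) and -0.45 for 3 mitochondrial genes (SD 1.53). On replicate 4 they were 0.25 for 9 cytosolic genes (SD 1.48) and -0.06 for 10 mitochondrial genes (SD 1.46). The ranges of the 2 groups overlapped on every array. On replicate 1, for example, cytosolic values ran from -0.98 to 4.02 and mitochondrial values from -2.17 to 2.04.

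The cytosolic minus mitochondrial difference of the medians was 0.51, -2.08, 0.32 and 0.31 on replicates 1 to 4, a mean of -0.23 ± 1.23 (SD, n = 4 arrays). The mean is smaller than the spread between arrays. The 3 arrays of one channel order gave differences of 0.31 to 0.51, with a mean of 0.38 ± 0.11 (SD, n = 3), and replicate 2 stood apart from them. As deposited, replicate 2 gave 2.08, and the mean over 4 arrays was then 0.80 ± 0.85 (SD, n = 4). With means over genes in place of medians the differences were 0.68, -1.08, 0.53 and 0.29. With runs of neighbouring spots centred they were 0.87, -0.59, -0.16 and 0.39, so the sign on replicate 3, which rests on 7 and 3 genes, turned. No p is given, because the genes are not replicates.

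**Figure D2:**
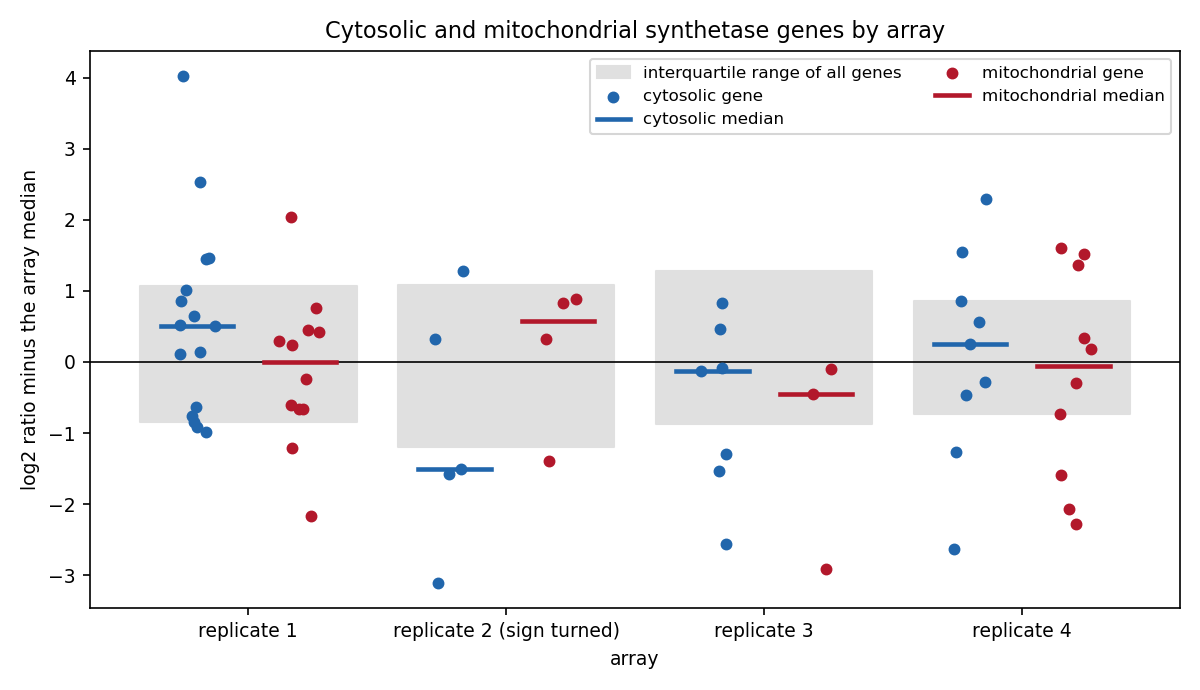
Log2 ratio minus the array median (y axis) of every measured cytosolic gene (blue) and mitochondrial gene (red) on each array (x axis). Thick lines are group medians and grey boxes the interquartile range of all genes. The groups overlap on every array, and the cytosolic median of -1.50 on replicate 2 is the only group median outside the grey box.

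The genes measured differ between arrays, so the medians do not follow the same genes. Among the genes measured on both replicates 1 and 4, the 8 cytosolic genes had medians of 0.68 and 0.41 and the 9 mitochondrial genes medians of -0.24 and -0.30. This subset was chosen after the data were seen. On replicates 1 and 4, 4 of the 8 cytosolic genes were above the median on both and 0 below on both, while 2 of the 9 mitochondrial genes were above on both and 3 below on both. Over the 2 compartments 9 of 17 genes thus kept their side, against 52.5% of 1912 genes.

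Setting each cytosolic enzyme against its mitochondrial partner for the same amino acid compares genes on 1 array. Of 13 such pairs, 12 had both genes on at least 1 array, and 17 comparisons were possible in all. Phenylalanine counts as more than 1 pair, because FRS1 and FRS2, for subunits of 1 enzyme, are both set against MSF1. On replicate 3 these comparisons share 1 MSF1 value, -0.45. The cytosolic gene was higher in 10 and the mitochondrial gene in 7, with a median difference of 0.36. The split was 11 and 6 with replicate 2 as deposited. On replicate 1, the array with the most pairs, the split was 5 and 5 of 10, with a median of 0.12. On replicate 4 the cytosolic gene was higher in 3 of 4 pairs.

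The largest pair difference was for glutamate, with GUS1 at 4.02 and MSE1 at -0.61 on replicate 1, a difference of 4.63. For asparagine, DED81 exceeded SLM5 by 3.64 on replicate 1 and by 1.31 on replicate 4. For lysine, KRS1 exceeded MSK1 by 0.44 and 1.31 on the same arrays. These were the 2 of 5 pairs with more than 1 array that kept 1 sign. For leucine, CDC60 minus NAM2 was 1.68 on replicate 1 and -2.81 on replicate 4, opposite in sign. For aspartate, DPS1 minus MSD1 was 2.08 on replicate 1 and -0.0099 on replicate 2, and with replicate 2 as deposited this pair kept 1 sign too, 3 of 5 in all. The phenylalanine pair FRS1 and MSF1 differed by -0.19 and 0.36 on replicates 1 and 3, the smallest range among these pairs. Serine had the opposite extreme, with SES1 at -0.92 and DIA4 at 2.04 on replicate 1, a difference of -2.96. With runs of neighbouring spots centred, SES1 had 0.87 and DIA4 1.89 there.

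**Figure D3:**
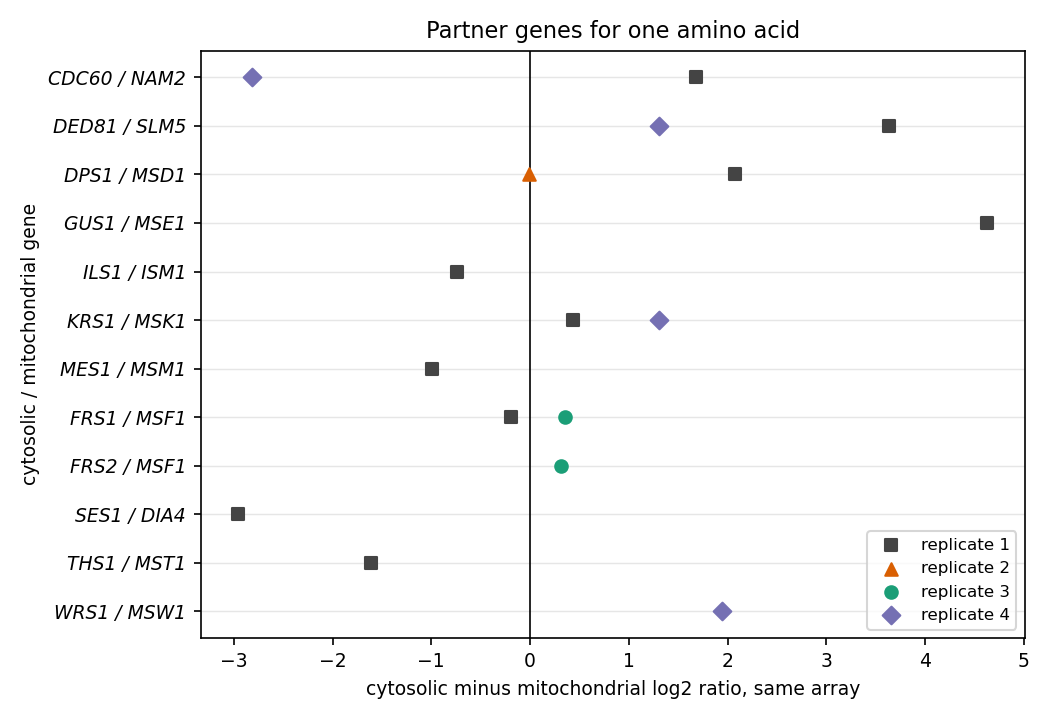
Difference between the cytosolic and the mitochondrial gene for an amino acid, in log2 ratio on the same array (x axis), for the 12 pairs with both genes measured (y axis), with a symbol per array. Pairs lie on both sides of 0, from -2.96 for SES1 and DIA4 to 4.63 for GUS1 and MSE1.

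Enzyme class did not order the values in the same way on every array. On replicate 1 the class I genes had a median of 0.64 in the cytosol (7 genes) and -0.64 in the mitochondrion (6 genes). The class II genes had 0.31 (8 genes) and 0.44 (6 genes). On replicate 4 class I had 1.55 in the cytosol (3 genes) and 0.18 in the mitochondrion (5 genes), and class II had -0.29 (5 genes) and -0.30 (5 genes). In the mitochondrion class I thus lay below class II on replicate 1 and above it on replicate 4. Replicates 2 and 3 had at most 2 genes of a class in the mitochondrion. In the cytosol, class I lay above class II on replicates 1 and 4 but below it on replicate 3, at -1.93 (2 genes) against -0.09 (5 genes). On replicate 2 cytosolic class I had -1.50 (1 gene) and class II -0.63 (4 genes), an order that turns with the sign of that array. Of the genes that serve both compartments, ALA1, GRS1 and VAS1 had 0.52, -0.63 and 0.14 on replicate 1, all within 2-fold of the median. VAS1 was 2.83-fold below the median on replicate 2 and 2.93-fold above it on replicate 4. The VAS1 spots on replicate 1, at 0.50 and -0.23, disagreed in sign. GRS1 had 0.60 on replicate 1 with runs of neighbouring spots centred.

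Duplicate spots give the error within an array, which can be set beside the spread between arrays. On the second platform each of the 33 genes has 2 spots, and both carried a value for 7, 8 and 13 of them on replicates 2, 3 and 4. The median gap between the spots of a gene was 1.69, 0.49 and 0.77 on these arrays, against 0.53, 0.48 and 0.41 for all genes with 2 measured spots. The pooled SD of single spots was 1.36, 0.42 and 0.65 for the synthetase genes, and 0.81, 0.83 and 0.55 for all genes. The spots of synthetase genes thus lay farther apart by the median gap on replicates 2 and 4. Between the arrays of the second platform, the pooled SD of a gene's values was 1.39 over 11 synthetase genes with at least 2 values, and 1.81 over 1212 genes in all. Over all 4 arrays, which joins the platforms, it was 1.15 over 24 synthetase genes and 1.69 over 3288 genes. Over all genes, Pearson r between arrays ran from -0.11 (replicates 2 and 4) to 0.08 (replicates 1 and 4). Among synthetase genes r was -0.52 for 7 genes on replicates 2 and 4 and 0.26 for 17 on replicates 1 and 4. It was 0.32 for 8 genes on replicates 1 and 2 and 0.64 for 8 on replicates 1 and 3. Values over all genes thus hardly repeated between arrays, which limits the means of single genes above.

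**Figure D4:**
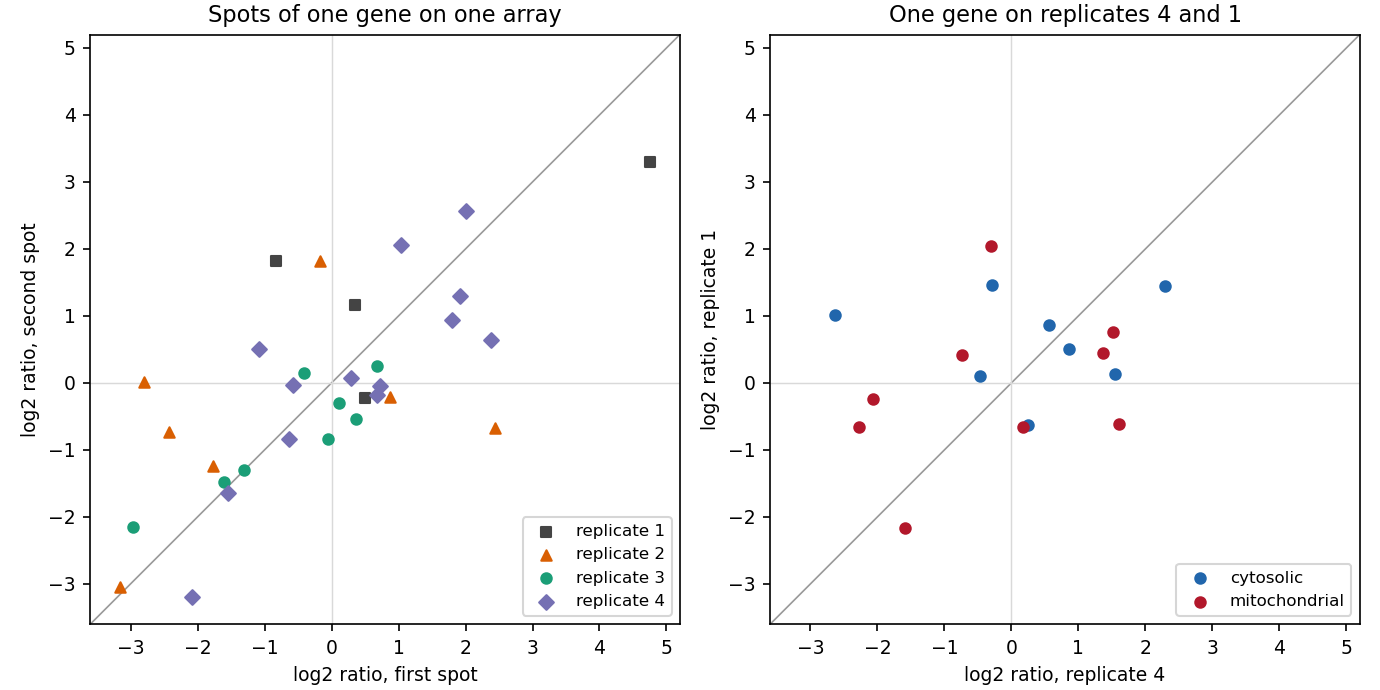
Left, log2 ratios of the second spot (y axis) against the first spot (x axis) of synthetase genes with 2 measured spots on an array. Right, values of genes on replicate 1 (y axis) against replicate 4 (x axis), with cytosolic genes in blue and mitochondrial genes in red. Grey diagonals mark equal values, and 9 of the 17 genes on the right lie on the same side of 0 on both arrays.

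Other genes of tRNA charging, processing and delivery were also without a call. Of 68 listed genes, 66 were matched on the arrays and 61 had a value. Limma's fit on the second platform held 15 of them, of which 0 passed and 1 had an unadjusted p under 0.05. Of 11 with at least 3 values, 4 kept to 1 side of the median, against 24.4% of all genes. The count was 3 with replicate 2 as deposited, against 25.9% of all genes, and 1 gene, NFS1, was in both counts. On replicates 1, 3 and 4 the elongation factor genes TEF1 and TEF2, whose product brings charged tRNA to the ribosome, had 4.98, 1.68 and 3.01 and 1.53, 1.81 and 4.53. These genes are near-identical, and their spots may report on either. All these values were 2-fold or more above the median. NFS1, the cysteine desulfurase gene that supplies sulfur for tRNA thiolation, had -0.91, -0.12 and -0.42, below the median on each.

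CRS1, the cysteinyl-tRNA synthetase gene, is not among the 33 and was named after its values were seen. It had -1.20, 2.93 and -4.54 on replicates 1, 3 and 4, each 2-fold or more from the median and on both sides of it.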

How the data were processed

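The authors deposited a log10 ratio of both channels for each spot, with the base read from the values themselves. Their numerator, dyes, background correction and normalization are not given in the sources. Values were converted to log2, the sign of replicate 2 was turned after its channel labels, spots of a gene were averaged, and each array was centred on the median of its named genes (Python 3.11.15, pandas 2.3.3). Gene symbols came from the platform annotation and were checked against RefSeq (assembly R64) by gene identifier. The files name no genome build, so no coordinates are given, and they hold no intensities, so dim spots were not filtered. The number of arrays limits the precision. The test was limma 3.58.1 (R 4.3.3), lmFit and eBayes with an intercept, over all genes with values on at least 2 of replicates 2, 3 and 4, adjusted by Benjamini-Hochberg with a threshold of 0.05, and was tested on simulated data. Every list member is accounted for, and those with at least 3 values are given in full. Genes of the other pathway lists were named where replicates 1, 3 and 4 had 1 sign, by their smallest value in size and at most 2 per list. Members and lists were chosen with earlier results of these data known. Alternatives covered the sign of replicate 2, centring, scaling, quantile normalization, spot handling, print order, the arrays joined, list membership and each replicate left out.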

Additional observations from a re-analysis of the deposited data

Results flagged for a closer look

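The cytosolic minus mitochondrial difference of the medians had 1 array far from the others. Replicate 2 gave -2.08, while replicates 1, 3 and 4 gave 0.51, 0.32 and 0.31, and the gap to the nearest value was 0.923 of the whole range, above Dixon's critical value for 4 samples. Replicate 2 rests on 5 cytosolic and 4 mitochondrial genes and is the array whose sign was turned. With replicate 2 as deposited the gap was 0.887 of the range, also above that value. It was 0.778 with means over genes and 0.327 with runs of neighbouring spots centred, both below it. Chance flags about 1 in 20 single sets of 4 values. As 3 such sets were examined, a flag in at least 1 of them is more likely by chance than that.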

How the results depend on the processing

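Limma called 0 synthetase genes under each of the 13 alternatives run. It also called 0 of all genes under each, so the count is not particular to the synthetase genes. One alternative, restricted to genes on all 3 arrays of the second table, held 0 synthetase genes and so tested none. The fits without replicate 2, without replicate 4 and on replicates 1, 3 and 4 held 2 synthetase genes each. With genes restricted to at least 2 spots per array, 1 of 5 synthetase genes and 24 of all 622 genes had an unadjusted p under 0.05. No synthetase gene was above the median on replicates 1, 3 and 4 under the 5 alternatives for that count. Only FRS1 and NAM2 were measured on all of these arrays, so no other gene could be counted. Scaling the arrays cannot change a sign, and without centring the count was taken against 0. With at least 2 spots FRS1 dropped out, because 1 of its 2 spots on replicate 4 had a value. The mean over arrays of the cytosolic minus mitochondrial difference was -0.23, with an SD over arrays of 1.23. It stayed within 1 SD of that value under all alternatives, a wide margin because the SD is larger than the mean. Centring cancels in a difference within an array, and leaving out 1 of 4 arrays cannot shift a mean by 1 SD. Those settings could therefore not leave the margin. The mean took a positive sign in 4 of the alternatives. It was 0.80 with replicate 2 as deposited, 0.13 with runs of neighbouring spots centred, 0.11 with means over genes and 0.38 without replicate 2, and leaving out 1 array gave -0.48 to 0.38. The cytosolic mean of -0.22 ranged from -0.46 to 0.21 when 1 array was left out, and was 0.53 with replicate 2 as deposited. The mitochondrial mean of 0.02 was 0.78 without centring, where the gene medians of the arrays, as deposited, are 1.27, -0.58, -0.83 and 2.03. It was -0.27 with replicate 2 as deposited and -0.17 to 0.17 when 1 array was left out. Among the 10 genes with 3 values, the mean changed sign for 5 without centring, 3 with 1 spot per gene and 3 with at least 2 spots. It changed sign for 2 with replicate 2 as deposited, 2 with runs centred, and 1 each with arrays scaled and without replicate 1. Leaving out another array concerns only the genes measured on it. The mean changed sign for 4 of 8 without replicate 4, 1 of 8 without replicate 2 and 0 of 4 without replicate 3. The signs of the means of DPS1, MSD1 and SLM5 held in each of these, although MSD1 was below the median on replicate 2 with runs centred. Part of this was fixed in advance. DPS1 has no value on replicate 4, and MSD1 and SLM5 have none on replicate 3, so leaving out those arrays could not change them. With at least 2 spots, DPS1 rested on replicate 1 alone, at 2.53. The cause of the differences between settings was not tested. No paired analysis was possible because there is 1 group of arrays and its replicate numbers only name them. Few arrays and many spots without a value limit what can be seen.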
